A study of Mus musculus with 24 samples.

Results

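The E2F family comprises the DNA-binding transcription factors that time entry into S phase, and it was followed here as 10 genes: E2f1 to E2f8 together with Rbl1 and Rbl2, which encode the pocket proteins p107 and p130. They were chosen by gene symbol, and all 10 were found among the 41444 genes of each deposited table and passed the filter on low values, as did 11470 genes in all. The RNA came from cultured murine cells of B-cell acute lymphoblastic leukemia, labelled as bone marrow, that carry the BCR-ABL1 oncogene, both Foxo1 alleles flanked by loxP sites (Foxo1 fl/fl) and a Cre recombinase fused to a modified oestrogen receptor (Cre-ERT2). These alleles were shared by every group, the vehicle controls included. Treated cells received 70 nM AS1842856, a small molecule used as a FOXO1 inhibitor, against DMSO, or 200 nM 4-hydroxytamoxifen (4-OHT), which activates Cre-ERT2 and so deletes Foxo1, against ethanol (EtOH). Each of the 8 groups (4 treatments, sampled at 48 h and at 24 h) held 3 libraries, 24 in all. Cells that lack the Cre but received 4-OHT were not analysed here, so effects of 4-OHT or of Cre activity and the loss of Foxo1 cannot be told apart. No label says that the 3 libraries of a group are separate cultures, and the p-values then cover only how far these libraries vary, which may be technical variation.

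In the textbook scheme, E2F1, E2F2 and E2F3 activate genes for DNA replication once cyclin-dependent kinases have released them from the retinoblastoma protein RB1. E2F4 and E2F5 mostly repress, bound to p107 or p130, and p130 with E2F4, a DP partner and the MuvB core forms the DREAM complex, which holds cell-cycle genes silent in resting cells. E2F6 represses without any pocket protein, within a Polycomb complex, and E2F7 and E2F8 are atypical members that bind DNA without a DP partner and repress E2F targets, E2f1 among them. FOXO factors are known to restrain the cell cycle in B-lineage cells, and Rbl2 has been described in other cells as a FOXO target.

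Several family genes are themselves E2F targets, and promoter windows are shown for 4 of the 5 genes whose responses to the 2 treatments differed at 48 h. RefSeq promoter windows on GRCm38.p6, which run 250 bases before to 50 bases after a transcript start, existed for 8 of the 10 genes, as 10 windows. Each is printed 5′ to 3′ on the gene's own strand. Capitals mark an E2F octamer (TTTCCCGC, TTTCGCGC, TTTGCCGC or TTTGGCGC, either strand) in E2f2 and Rbl1 and a cell-cycle homology region or CHR (TTTGAA or TTCGAA, either strand), the element through which MuvB contacts DNA, in E2f8 and Rbl2.
E2f2, chr4:136172024-136172323, plus strand: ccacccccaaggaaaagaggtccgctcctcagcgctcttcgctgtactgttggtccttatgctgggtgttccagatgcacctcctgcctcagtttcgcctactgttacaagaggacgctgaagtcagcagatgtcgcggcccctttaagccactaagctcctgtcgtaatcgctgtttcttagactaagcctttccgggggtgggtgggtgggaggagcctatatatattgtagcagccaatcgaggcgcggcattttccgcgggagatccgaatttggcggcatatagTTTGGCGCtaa
Rbl1, chr2:157204485-157204784, minus strand: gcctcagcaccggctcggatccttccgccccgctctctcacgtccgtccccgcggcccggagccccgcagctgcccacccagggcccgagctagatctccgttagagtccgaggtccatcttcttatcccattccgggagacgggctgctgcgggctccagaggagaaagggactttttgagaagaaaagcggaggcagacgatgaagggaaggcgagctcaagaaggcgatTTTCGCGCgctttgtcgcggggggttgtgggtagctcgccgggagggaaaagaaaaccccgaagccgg
E2f8, chr7:48881547-48881846, minus strand: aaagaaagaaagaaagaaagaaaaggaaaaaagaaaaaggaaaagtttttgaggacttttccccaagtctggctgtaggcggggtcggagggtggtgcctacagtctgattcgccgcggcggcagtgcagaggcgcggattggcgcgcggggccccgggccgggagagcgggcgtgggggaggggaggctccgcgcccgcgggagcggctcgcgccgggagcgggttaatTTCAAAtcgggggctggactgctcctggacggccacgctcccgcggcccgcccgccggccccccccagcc
Rbl2, chr8:91069807-91070106, plus strand: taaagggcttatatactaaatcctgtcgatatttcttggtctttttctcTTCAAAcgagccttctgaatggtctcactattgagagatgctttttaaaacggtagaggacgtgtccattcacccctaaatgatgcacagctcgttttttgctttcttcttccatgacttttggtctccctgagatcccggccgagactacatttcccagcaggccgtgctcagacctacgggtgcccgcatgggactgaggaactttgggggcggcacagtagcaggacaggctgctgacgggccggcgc
The octamer stood at position 40 after the start in E2f2 and at position -18 in Rbl1, and the CHR at position -20 in E2f8 and -201 in Rbl2. Octamers were also found in E2f3 and E2f7, so that 4 of the 10 windows held one, against 2.26% of all 32851 windows in the table. A CHR match stood in 4 of the 10 windows too (E2f3, E2f8, Rbl2 and a second window of E2f2), against 19.2% of all windows. The FOXO heptamer TGTTTAC, on either strand, was found in 0 of the 10 windows, against 3.65% of all windows. These are matches of letters and not sites shown to be bound. The printed E2f2 window lies wholly upstream of the gene as the GENCODE M21 annotation draws it, and its transcribed bases were not found in a GENCODE transcript.

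Values are the authors' normalised log2 expression values, whose transformation the file headers do not name, and total counts per library are unknown. The library medians over tested genes lay between 9.16 and 9.23. Differences between library values are smaller than the log2 fold changes in the authors' deposited tables, so both scales are named where they are used. The targeted gene checked the labels: Foxo1 stood at 8.02 to 8.16 in 4-OHT libraries at 48 h against 10.02 to 10.11 in EtOH libraries, and at 7.99 to 8.27 against 9.80 to 9.88 at 24 h. All 10 B-lineage markers were measured and passed the filter. Their summed level was 15.65 to 15.75 in AS1842856 libraries at 48 h against 15.95 to 16.09 in DMSO libraries, and 16.04 to 16.09 in 4-OHT libraries at 48 h against 15.83 to 15.93 in EtOH libraries. Single markers went both ways with 4-OHT. At 48 h 5 of the 10 were called higher and 2 lower, Ebf1 and Pax5 (25.0% and 25.8% of all genes). At 24 h 3 were called higher and 5 lower (15.7% and 13.7% of all genes). With AS1842856 at 48 h 0 were called higher and 6 lower (2.97% of all genes were lower). Of 8 T and NK markers 2 passed, Lck and Zap70, while Cd3d and Cd3e fell below the filter and Cd4 and Ncr1 were listed at 0. Over both times that list summed to 11.92 to 12.19 in 4-OHT libraries and 10.24 to 10.69 in EtOH libraries. At 48 h it summed to 10.49 to 10.71 in AS1842856 libraries against 10.41 to 10.59 in DMSO libraries, where Zap70 was called higher with AS1842856 (1.2 ± 0.14, adjusted p = 0.00660) and Lck was not called. Of 8 myeloid markers 3 passed, with Elane and Ly6g listed at 0, and the list summed to 7.57 to 7.91 in 4-OHT libraries and 6.69 to 7.13 in EtOH libraries. Of 8 stromal and endothelial markers 1 passed, Pecam1, with Kdr listed at 0, and the list summed to 10.25 to 10.71 in 4-OHT libraries and 9.37 to 9.71 in EtOH libraries. Of 6 erythroid markers 1 passed, with Hbb-bt and Hba-a1 listed at 0, and the list summed to 3.59 to 4.16 in 4-OHT libraries and 3.35 to 3.63 in EtOH libraries. The part of these shifts in the results on the E2F genes was not tested. Replicate 3 of AS1842856 at 24 h and replicate 1 of DMSO at 48 h stood apart from their group, with a root mean square difference to its mates of 0.285 (against 0.244 and 0.247) and 0.274 (against 0.219 and 0.221).

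The 10 genes did not move as a block under either treatment. A call means an adjusted p under 0.05 in limma's moderated test, adjusted over all 11470 tested genes. With AS1842856 at 48 h, 1 of the 10 was called, E2f2, which was lower, where 4.86% of all tested genes were called and 2.97% were lower. The libraries of 4 of the 10 did not overlap there (E2f2, E2f8, Rbl1, Rbl2), as those of 26.9% of genes did not, and the authors' deposited test called 3 (E2f2, E2f8, Rbl1), where it called 12.6% of genes. With AS1842856 at 24 h, 0 of the 10 were called, where 0.00872% of genes were (1 gene). Only E2f7 had an unadjusted p under 0.05 there (p = 0.0457), as 2.02% of genes did, and the authors' deposited test called 0 of the 10 and 0.13% of genes. With 4-OHT at 48 h, 2 rose (E2f2, Rbl2) and 3 fell (E2f4, E2f5, E2f6), where 50.8% of all genes were called, 25.0% higher and 25.8% lower, and the authors' deposited test called 4 of the 10 and 36.1% of genes. With 4-OHT at 24 h, 2 rose (E2f8, Rbl2) and 3 fell (E2f3, E2f4, E2f5), against 29.5% of genes called, 15.7% higher and 13.7% lower (53.4% of calls were higher, but 45.4% with libraries shifted to equal medians), and the authors' deposited test called 3 of the 10 and 19.5% of genes. As a share, 5 of 10 is close to the background at 48 h in the 4-OHT arm, and nothing about the family is read from that count. In bulk RNA, fewer cells of a type and less RNA per cell cannot be told apart. Over the 10 genes the median difference was -0.11 with AS1842856 at 48 h, 0.05 with AS1842856 at 24 h, 0.01 with 4-OHT at 48 h and -0.04 with 4-OHT at 24 h. The median over all tested genes lay between -0.0051 and 0.0062 in every comparison.

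**Figure D1:**
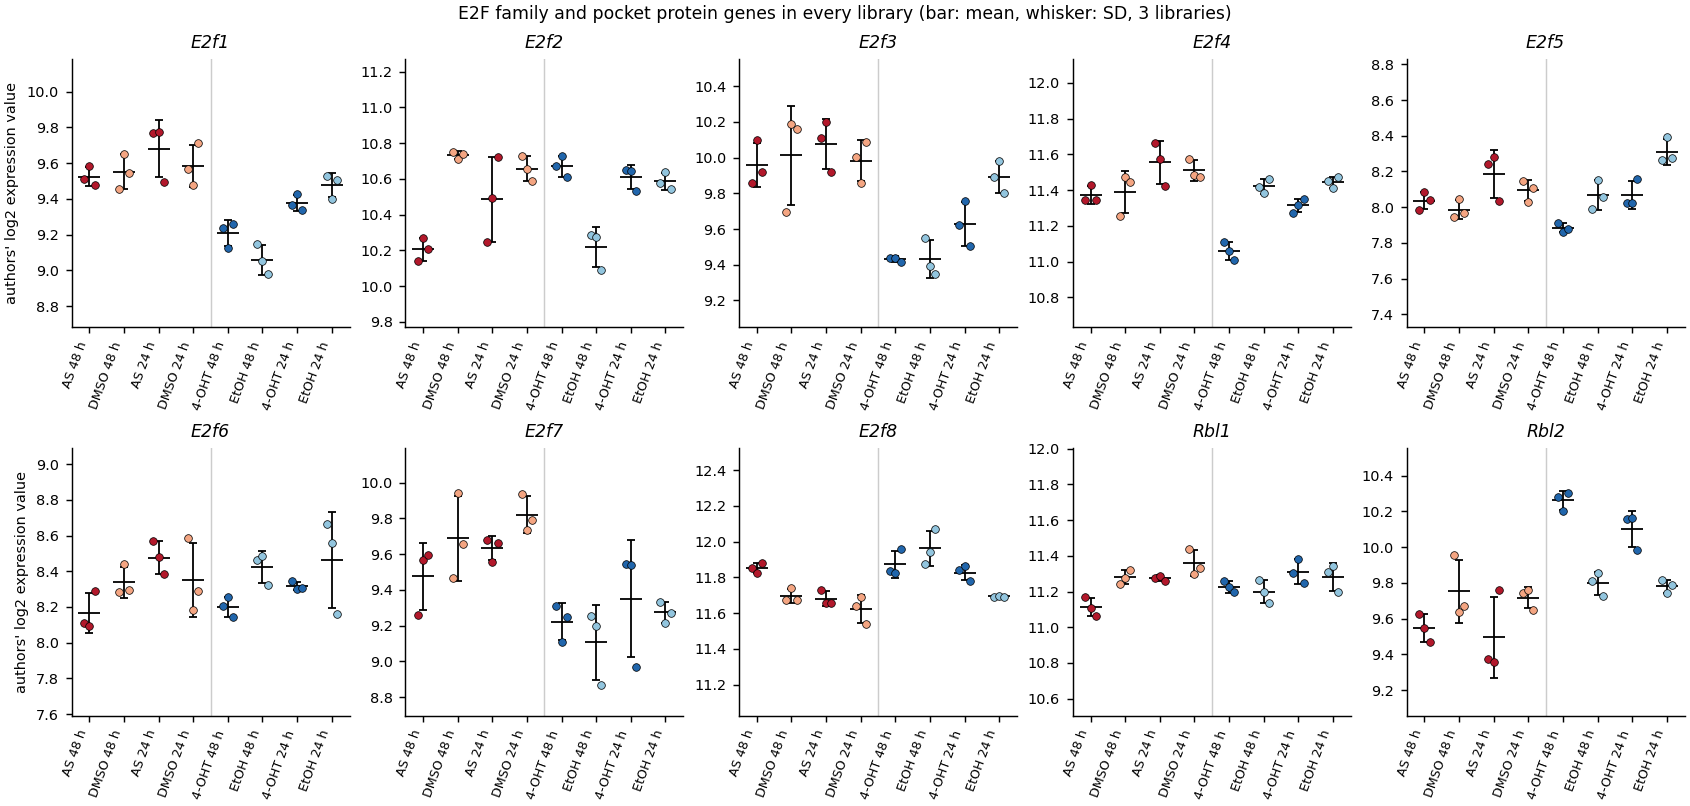
The authors' log2 expression value (vertical axis, each panel spanning 1.5 units) of the 10 genes in every library of the 8 groups (horizontal axis; AS stands for AS1842856). Points are libraries, bars are means and whiskers are SD (n = 3). E2f2 is low in AS1842856 libraries at 48 h and also in EtOH libraries at 48 h, and Rbl2 is highest in the 4-OHT libraries.

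Among the activators, E2f2 (ENSMUSG00000018983, chr4:136172394-136196057 on GRCm38, plus strand) was lower with AS1842856 and higher with 4-OHT at 48 h. It stood at 10.14, 10.27 and 10.21 in AS1842856 libraries at 48 h, against 10.75, 10.71 and 10.74 in DMSO libraries. All 3 AS1842856 libraries lay below all 3 DMSO libraries, and the difference was -0.53 ± 0.05 (SE), with an adjusted p of 0.00509. The authors' deposited table gives a fold of 0.575 for it (adjusted p = 7.69e-08). The call held in each of the 6 fits that left out 1 library, where the highest adjusted p was 0.0372. At 24 h the AS1842856 libraries spread widely, at 10.24, 10.49 and 10.72, against 10.73, 10.66 and 10.59 in DMSO libraries, and they overlapped them. The difference was -0.17 ± 0.12, and without replicate 3 of AS1842856 it was -0.29 ± 0.09 (adjusted p = 0.336).

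With 4-OHT at 48 h E2f2 stood at 10.67, 10.73 and 10.61, against 10.29, 10.27 and 10.09 in EtOH libraries. The groups did not overlap, and the difference was 0.45 ± 0.06 (adjusted p = 2.43e-04), a fold of 1.60 in the authors' deposited table. At 24 h the 4-OHT libraries, at 10.65, 10.65 and 10.53, overlapped the EtOH libraries, at 10.58, 10.64 and 10.54. The response thus grew between the times, by 0.43 ± 0.08 (adjusted p = 0.00350, called in each of 12 fits that left out 1 library), where 15.6% of genes had a changed response, 6.57% higher and 9.03% lower (42.1% of calls were higher, but 56.6% with libraries shifted to equal medians). E2f4 and E2f8 were the other 2 of the 10 called in this test, both lower. Over the same interval E2f2 fell in EtOH cells by 0.37 on the log2 scale (SE 0.06, adjusted p = 0.00373), while the 4-OHT libraries of both times overlapped. The AS1842856 level at 48 h, 10.20 ± 0.06 (SD, n = 3), and the EtOH level at 48 h, 10.22 ± 0.11, overlapped, although they belong to different arms.

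E2f1 (ENSMUSG00000027490, chr2:154559407-154569892, minus strand), the founding member, was called in no treatment comparison. It stood at 9.24, 9.12 and 9.26 in 4-OHT libraries at 48 h and at 9.15, 9.05 and 8.98 in EtOH libraries, a difference of 0.15 ± 0.06 (adjusted p = 0.0766). With AS1842856 at 48 h its libraries ran from 9.48 to 9.58, inside the DMSO range of 9.46 to 9.65. It passed the test at 48 h in the 4-OHT arm only when EtOH replicate 1 (0.19, adjusted p = 0.0390) or 4-OHT replicate 2 (0.19, adjusted p = 0.0484) was left out. Its clearest shift was with time in EtOH cells: 9.15, 9.05 and 8.98 at 48 h, against 9.53, 9.40 and 9.51 at 24 h, a fall of 0.42 on the log2 scale (SE 0.06, adjusted p = 0.00281).

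E2f3 (ENSMUSG00000016477, chr13:29906575-29986063, minus strand) was lower with 4-OHT at 24 h and stood at the same mean as its vehicle at 48 h. At 24 h it stood at 9.62, 9.75 and 9.51 in 4-OHT libraries, against 9.89, 9.98 and 9.80 in EtOH libraries, a difference of -0.26 ± 0.07 (adjusted p = 0.0269). That call was lost without EtOH replicate 1 or 2 or 4-OHT replicate 1 or 3 (adjusted p 0.0609 to 0.0909), and it was not made by the authors' deposited test (adjusted p = 0.0735), with no filter on low values (0.103) or in the fit of all 8 groups (0.0923). At 48 h the means of 4-OHT and EtOH libraries were both 9.43, and the EtOH level was 0.46 lower than at 24 h (difference -0.46 ± 0.07, adjusted p = 0.00292). In the compound arm E2f3 ranged from 9.86 to 10.10 at 48 h with AS1842856 and from 9.69 to 10.19 with DMSO, where replicate 1, the library that stood apart, was the low one.

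Of the repressor class, E2f4 (ENSMUSG00000014859, chr8:105297663-105305370, plus strand), the E2F most often found in DREAM, fell with 4-OHT at 48 h and, less securely, at 24 h. It stood at 11.11, 11.06 and 11.01 in 4-OHT libraries at 48 h, against 11.42, 11.38 and 11.46 in EtOH libraries. Every 4-OHT library lay below every EtOH library (difference -0.36 ± 0.04, adjusted p = 6.85e-05, a fold of 0.680 in the authors' deposited table). At 24 h its values were 11.27, 11.32 and 11.35 with 4-OHT and 11.45, 11.41 and 11.47 with EtOH, a difference of -0.13 ± 0.03 (adjusted p = 0.0225). The 24 h call was lost without EtOH replicate 1 or 3 or 4-OHT replicate 1 or 2 (adjusted p 0.0622 to 0.0842). It was not made by the authors' deposited test (adjusted p = 0.116), by limma's fit of all 8 groups (0.124) or by limma with no variance trend (0.0559). The 48 h response was lower than the 24 h response, with a difference of -0.23 ± 0.05 (adjusted p = 0.00860, or 0.121 in the fit of all 8 groups). The EtOH levels of the 2 times overlapped (-0.02 ± 0.03, adjusted p = 0.628), and the 4-OHT libraries of 48 h lay below those of 24 h. In the compound arm E2f4 stood at 11.37 ± 0.05 with AS1842856 and 11.39 ± 0.12 with DMSO at 48 h (SD, n = 3 each), and the groups overlapped.

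E2f5 (ENSMUSG00000027552, chr3:14578641-14606309, plus strand), the other pocket-protein-bound repressor, was lower with 4-OHT, though less securely. It stood at 7.91, 7.86 and 7.88 in 4-OHT libraries at 48 h, against 7.99, 8.15 and 8.06 in EtOH libraries (difference -0.18 ± 0.07, adjusted p = 0.0474). At 24 h it stood at 8.02, 8.02 and 8.16 with 4-OHT, against 8.26, 8.40 and 8.28 with EtOH (difference -0.24 ± 0.07, adjusted p = 0.0273). Each call held in 1 of 6 fits that left out 1 library: at 48 h it held without EtOH replicate 1 and reached 0.159 otherwise, and at 24 h it held without 4-OHT replicate 3 and reached 0.0893 otherwise. The 48 h call was also lost with equal library medians (adjusted p = 0.0602) and marginally with no filter on low values (0.05003), and the 24 h call with no filter (0.0550). E2f5 shares its locus with 1810022K09Rik on the opposite strand, which also fell (-0.30 ± 0.07 at 48 h and -0.28 ± 0.05 at 24 h). As the strand setting of the counting is not given in the sources used here, reads of the 2 genes may not have been told apart.

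The pocket protein gene Rbl2 (ENSMUSG00000031666, chr8:91070057-91123844, plus strand) rose with 4-OHT at both times. It stood at 10.28, 10.20 and 10.30 in 4-OHT libraries at 48 h, against 9.81, 9.86 and 9.73 in EtOH libraries. At 24 h it stood at 10.16, 10.16 and 9.99 with 4-OHT, against 9.81, 9.74 and 9.79 with EtOH. Neither pair overlapped, and the differences were 0.47 ± 0.05 at 48 h (adjusted p = 6.61e-05) and 0.32 ± 0.06 at 24 h (adjusted p = 0.00360), both called in each of 6 fits that left out 1 library. In the authors' deposited tables the folds are 1.60 at 48 h and 1.39 at 24 h. In EtOH cells the levels at 48 h and 24 h overlapped (0.02 ± 0.05, adjusted p = 0.831). Aktip, which overlaps Rbl2 on the opposite strand, was not called (0.08 ± 0.06 at 48 h).

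With AS1842856, Rbl2 lay on the other side of its vehicle without passing the test. At 48 h it stood at 9.62, 9.55 and 9.47 with AS1842856, against 9.96, 9.63 and 9.67 with DMSO. The groups were just apart, and the difference was -0.21 ± 0.09 (adjusted p = 0.260), or -0.11 ± 0.06 without DMSO replicate 1. At 24 h the values were 9.37, 9.36 and 9.76 with AS1842856 and 9.74, 9.76 and 9.65 with DMSO, so that replicate 3 of AS1842856 was the one at the DMSO level. Without it the difference was -0.35 ± 0.07 (adjusted p = 0.185), against -0.22 ± 0.11 with it.

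Rbl1 (ENSMUSG00000027641, chr2:157145893-157204534, minus strand), whose product p107 is made mostly in cycling cells, varied least of the 10 genes, over 0.37 log2 units across the 24 libraries. It stood at 11.17, 11.11 and 11.06 with AS1842856 at 48 h, against 11.24, 11.27 and 11.32 with DMSO, and the groups did not overlap. The difference of -0.17 ± 0.05 missed the threshold (adjusted p = 0.104), while the authors' deposited test called it (adjusted p = 0.0122). With 4-OHT its values overlapped those with EtOH at both times (0.03 ± 0.04 at 48 h and 0.03 ± 0.05 at 24 h).

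E2f6 (ENSMUSG00000057469, chr12:16810963-16839742, plus strand) stood at 8.21, 8.25 and 8.14 in 4-OHT libraries at 48 h, against 8.46, 8.49 and 8.32 in EtOH libraries, a fall of 0.22 (SE 0.07, adjusted p = 0.0217). The call was lost without EtOH replicate 1 or 2 or 4-OHT replicate 1 or 3 (adjusted p 0.0539 to 0.0771), and it was not made by the authors' deposited test (adjusted p = 0.106) or in the fit of all 8 groups (0.104). At 24 h the EtOH libraries ran from 8.16 to 8.67 and enclosed the 4-OHT libraries at 8.30 to 8.34; without EtOH replicate 3 the difference of -0.30 was called (adjusted p = 0.0183). Of 9 genes for its Polycomb complex, 0 rose and 5 fell with 4-OHT at 48 h, where 25.8% of all genes were called lower. The 5 included Yaf2, Tfdp1, Cbx3 and L3mbtl2. The count was 2 without EtOH replicate 1 or 4-OHT replicate 3, and 3 without EtOH replicate 3 or 4-OHT replicate 2. The germline genes that E2F6 keeps silent in other mouse cells could not be followed, since 0 of 10 passed the filter on low values.

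The atypical members differed from each other. E2f8 (ENSMUSG00000046179, chr7:48866429-48881596, minus strand) stood at 11.84, 11.86 and 11.78 in 4-OHT libraries at 24 h, against 11.69, 11.70 and 11.69 in EtOH libraries, a rise of 0.13 ± 0.03 (adjusted p = 0.0163). The call was lost without EtOH replicate 1 or 3 or 4-OHT replicate 2 (adjusted p 0.0551 to 0.0639) and in the fit of all 8 groups (0.0659). At 48 h the order had turned, with 11.84, 11.82 and 11.96 in 4-OHT libraries and 11.88, 11.94 and 12.07 in EtOH libraries, which overlapped. The 48 h response was lower than the 24 h response (difference -0.22 ± 0.07, adjusted p = 0.0438), and EtOH cells had gained 0.27 ± 0.05 between the times (adjusted p = 0.00546). That difference of responses was called in 3 of 12 fits that left out 1 library and was lost without any library of EtOH at 24 h, EtOH replicate 2 or 3 at 48 h, or 4-OHT replicates 1 and 2 at either time (adjusted p 0.0644 to 0.0933). It was also lost with no filter (adjusted p = 0.103), with equal library medians (0.0718), in the fit of all 8 groups (0.0816) and with no variance trend (0.0747). With AS1842856 at 48 h E2f8 stood at 11.85, 11.83 and 11.88, above all DMSO libraries at 11.67, 11.74 and 11.67. The difference of 0.16 ± 0.04 had an adjusted p of 0.0957, and of 0.0419 with the replicate number as a block, a fit that called 14.2% of all genes. The authors' deposited test called it too (adjusted p = 0.0217). Gm2788, on the opposite strand at the E2f8 locus, was not called in these comparisons.

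E2f7 (ENSMUSG00000020185, chr10:110745439-110787384, plus strand) was called nowhere and varied most, over 1.07 log2 units across the 24 libraries. With AS1842856 at 24 h its libraries, at 9.68, 9.56 and 9.66, lay below those with DMSO, at 9.93, 9.73 and 9.79 (difference -0.19 ± 0.08, adjusted p = 1.00). Rbl1 was the other of the 10 whose libraries did not overlap in that comparison, as those of 6.32% of all genes did not. In 4-OHT libraries at 24 h E2f7 stood at 9.54 and 9.54 in replicates 1 and 2 and at 8.97 in replicate 3, against 9.33, 9.22 and 9.27 in EtOH libraries. Without replicate 3 the difference of 0.27 was called (adjusted p = 0.00862).

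**Figure D2:**
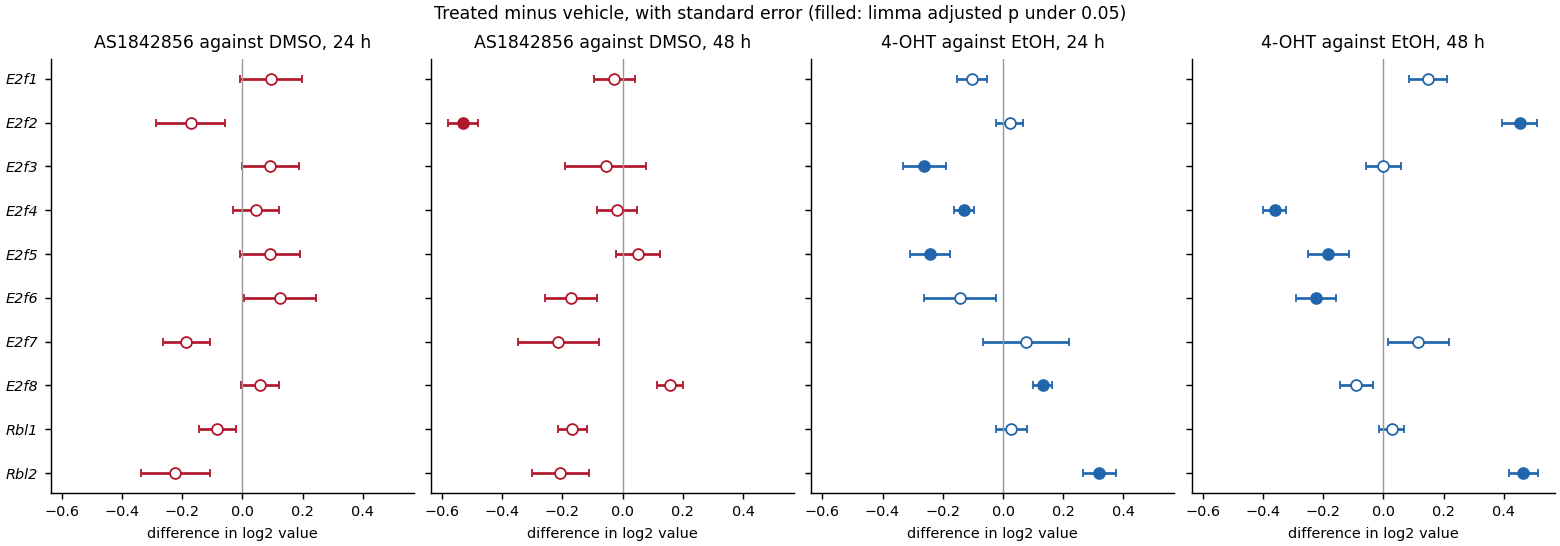
Treated minus vehicle difference in the authors' log2 value (horizontal axis) for each gene (vertical axis) in the 4 treatment comparisons, with the standard error from limma. Filled points passed an adjusted p of 0.05; with AS1842856 at 48 h this is E2f2 alone, at -0.53, and with 4-OHT at 48 h E2f2 and Rbl2 lie at 0.45 and 0.47 and E2f4 at -0.36.

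Some of the 10 genes differed between the times in EtOH cells, but no such call was made in DMSO cells. Between 48 h and 24 h in EtOH cells 1 of the 10 genes rose, E2f8, and 4 fell, E2f1, E2f2, E2f3 and E2f5, where 25.4% of all genes were called, 13.4% higher and 12% lower (52.8% of calls were higher, but 41.3% with equal library medians). The E2f5 fall, 0.25 on the log2 scale (SE 0.07, adjusted p = 0.0335), was lost without EtOH replicate 1, 2 or 3 at 24 h or replicate 1 or 3 at 48 h (adjusted p 0.0631 to 0.106), and with no filter (0.0720). In DMSO cells 0 of the 10 were called over the same interval, and 0 had an unadjusted p under 0.05, where limma called 0.00872% of genes and 10.2% had such a p. Whether the 2 vehicles differed in their change with time was not tested. The EtOH groups serve both as the later and earlier vehicle and as the controls of 4-OHT, so that the shifts of E2f1, E2f2, E2f3 and E2f8 with time in EtOH and the 4-OHT differences share libraries.

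The level of a gene cannot be compared with that of another on this scale, but each gene's order over the groups can be read. E2f1 and E2f3 were highest in the compound arm and lowest at 48 h in the 4-OHT arm. For E2f1 the 6 highest groups overlapped from one to the next, and a gap separated 4-OHT at 24 h, at 9.38 ± 0.05 (SD, n = 3), from 4-OHT at 48 h, at 9.21 ± 0.07. For Rbl2 the order ran from 4-OHT at 48 h, at 10.26 ± 0.05, and at 24 h, at 10.10 ± 0.10, through all 4 vehicle groups, at 9.72 to 9.80, to AS1842856 at 48 h, at 9.55 ± 0.08, and at 24 h, at 9.49 ± 0.23. The 4-OHT groups overlapped neither each other nor the vehicles. For E2f4 the only gap between neighbours lay below 4-OHT at 24 h, and 4-OHT at 48 h stood alone at the bottom. For E2f2 no neighbours in the order were apart.

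Set against each other at 48 h, the 2 treatments gave different responses in 5 of the 10 genes, where 37.1% of all genes differed, 18% higher and 19.1% lower. The responses have no control libraries in common. The AS1842856 response minus the 4-OHT response was -0.98 ± 0.08 for E2f2 (adjusted p = 5.06e-06) and -0.67 ± 0.11 for Rbl2 (adjusted p = 6.17e-04). It was 0.34 ± 0.08 for E2f4 (adjusted p = 0.00502), whose fall was measured with 4-OHT and not with AS1842856. These 3 differences were called in each of 12 fits that left out 1 library. For E2f8 the difference was 0.25 ± 0.07 (adjusted p = 0.0200), lost without 4-OHT replicate 1 or 2 (adjusted p up to 0.0517). For Rbl1 it was -0.19 ± 0.06 (adjusted p = 0.0284), lost without AS1842856 replicate 2 or 3, DMSO replicate 3, EtOH replicate 2 or 3 or 4-OHT replicate 1 or 2 (adjusted p 0.0512 to 0.0731). At 24 h only Rbl2 was called, with a difference of -0.54 ± 0.13 (adjusted p = 0.0337), where 6.1% of genes were and 4.15% were lower. This call held only without replicate 3 of AS1842856, of DMSO or of 4-OHT, and reached an adjusted p of 0.0905 in the other fits that left out 1 library. It was lost with no filter on low values as well (adjusted p = 0.0854). Without replicate 3 of AS1842856, 5 of the 10 were called at 24 h, with Rbl2 at -0.67, E2f2 at -0.31, E2f3 at 0.43, E2f5 at 0.41 and E2f4 at 0.24.

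**Figure D3:**
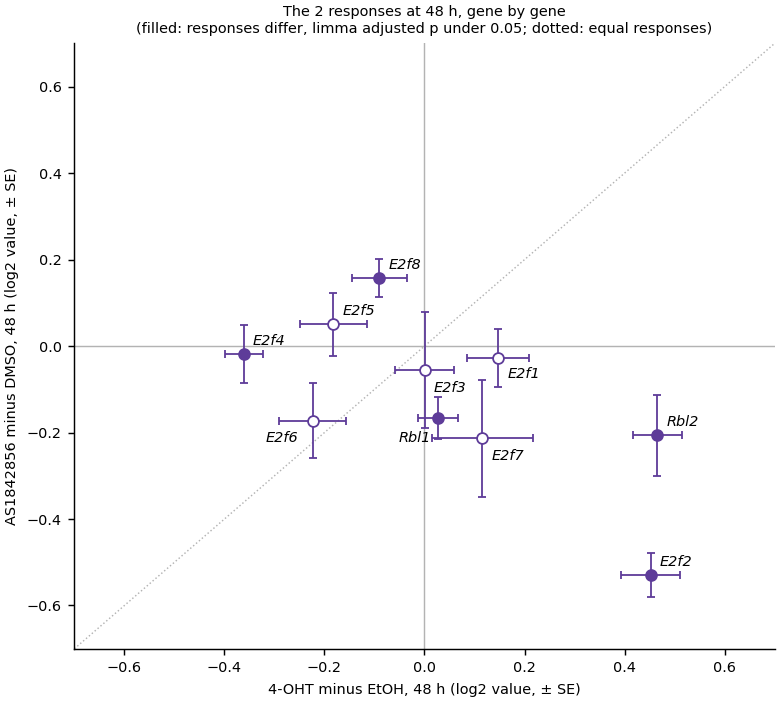
Response to AS1842856 (vertical axis, minus DMSO) against response to 4-OHT (horizontal axis, minus EtOH) at 48 h for each of the 10 genes, in log2 value with standard errors. Filled points mark responses that differ by limma's test. E2f2 (-0.53 and 0.45) and Rbl2 (-0.21 and 0.47) lie in the lower right corner, far from the dotted line of equal responses.

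Partner genes of the family also differed. Tfdp2, a DP subunit with which E2F1 to E2F6 bind DNA, stood at 9.74, 9.84 and 9.60 with AS1842856 at 48 h, against 10.52, 10.39 and 10.53 with DMSO (difference -0.76 ± 0.07, adjusted p = 0.00509). Rb1, the third pocket protein gene, stood at 9.41, 9.43 and 9.33 with AS1842856, against 9.96, 9.85 and 10.09 with DMSO (difference -0.58 ± 0.07, adjusted p = 0.00860). Tfdp1, the other DP gene, was not called there (-0.19 ± 0.07, adjusted p = 0.194). With 4-OHT at 48 h Tfdp2 rose by 0.32 ± 0.08 (adjusted p = 0.0109) and Tfdp1 fell by 0.30 (SE 0.08, adjusted p = 0.00999), while Rb1 did not differ detectably (0.03 ± 0.06, adjusted p = 0.762). At 24 h Rb1 was higher with 4-OHT (0.25 ± 0.07, adjusted p = 0.0385), which held only without 4-OHT replicate 3, and Tfdp1 was lower (-0.38 ± 0.11, adjusted p = 0.0330), which was lost without EtOH replicate 1 or 3 or 4-OHT replicate 1 or 3. With AS1842856 at 48 h the call of Rb1 was lost without AS1842856 replicate 3. The responses to the 2 treatments at 48 h differed for Tfdp2 (-1.08 ± 0.12, adjusted p = 4.64e-05) and for Rb1 (-0.60 ± 0.10, adjusted p = 6.79e-04).

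Of the MuvB core genes with Mybl2 and Foxm1, which take over from DREAM to drive mitotic genes, 1 of 7 fell with AS1842856 at 48 h (2.97% of all genes were called lower). This was Foxm1, at 10.78, 10.91 and 10.93 with AS1842856 and 11.27, 11.13 and 11.16 with DMSO (difference -0.31 ± 0.06, adjusted p = 0.0346), and the call held only when DMSO replicate 1 was the library left out. With the replicate number as a block 2 of the 7 were called lower, Foxm1 and Mybl2 (-0.19 ± 0.04, adjusted p = 0.0224). That fit called 7.54% of all genes lower. With 4-OHT at 48 h Foxm1 rose by 0.36 ± 0.04 (adjusted p = 1.41e-04), Lin52 rose too, and Mybl2 fell by 0.32 (SE 0.04, adjusted p = 2.76e-04). Of all genes 25.0% were called higher and 25.8% lower in that comparison. Upstream of the pocket proteins, 1 of 11 measured cyclin, kinase and inhibitor genes was called with AS1842856 at 48 h, where 4.86% of all genes were. It was Ccnd3, a D cyclin of lymphoid cells (-0.76 ± 0.05, adjusted p = 0.00174). Without DMSO replicate 1, where 901 genes were called in all, 2 of the 11 were called. With the replicate number as a block, a fit that called 14.2% of all genes, 5 of the 11 were called. Cdkn1a, Cdk6 and Cdkn2b were higher (adjusted p 0.0150, 0.0206 and 0.0366) and Ccnd3 and Cdk2 lower. Ccnd3 was lower with 4-OHT at 48 h as well (-0.31 ± 0.04, adjusted p = 1.45e-04). There 4 of the 11 rose and 4 fell, where 25.0% of all genes were called higher and 25.8% lower. Those that rose included the inhibitor genes Cdkn1b (0.60 ± 0.04, adjusted p = 3.56e-06) and Cdkn1a (0.78 ± 0.09, adjusted p = 1.10e-04). Those that fell included the inhibitor gene Cdkn2a (-0.37 ± 0.03, adjusted p = 2.41e-05).

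The targets of the family were read from 2 lists. Of 40 E2F-driven genes of G1/S, 0 rose and 6 fell with AS1842856 at 48 h (median -0.17), where 2.97% of all genes were called lower. The 6 included Mcm7, a subunit of the replicative helicase (-0.42 ± 0.06, adjusted p = 0.0146), and Dtl, an adaptor for the destruction of Cdt1 (-0.30 ± 0.05, adjusted p = 0.0216). With the replicate number as a block 21 fell, where that fit called 7.54% of all genes lower. The fit of all 8 groups called 14 lower, and 18 fell without DMSO replicate 1, but 0 fell with no filter on low values and 0 or 1 when any other library was left out. Over all tested genes the 8-group fit called 1220 and the fit without DMSO replicate 1 called 901, against 557 in the main fit. With 4-OHT at 48 h 6 rose and 7 fell of the 40 (median 0.03), where 25.0% of all genes were called higher and 25.8% lower. Only 4 fell without EtOH replicate 1 or 4-OHT replicate 3, and 2 in the fit of all 8 groups. Uhrf1, a reader of hemimethylated DNA, rose (0.39 ± 0.05, adjusted p = 2.22e-04). At 24 h 1 rose and 5 fell (median -0.07), where 15.7% of all genes were called higher and 13.7% lower. The count that fell was 2 without EtOH replicate 1 and 3 without 4-OHT replicate 1 or 2. The count that rose was 0 without EtOH replicate 3 and 2 without 4-OHT replicate 3. With all libraries shifted to equal medians 10 fell at 24 h, against 1 in the fit of all 8 groups, where 0 rose, and 3 with no variance trend. With AS1842856 at 24 h 0 were called. For EtOH cells at 48 h against 24 h, 0 rose and 36 fell of the 40, with a median of -0.23. In that comparison 13.4% of all genes were called higher and 12% lower. Of those calls over all genes 52.8% were higher, but 41.3% with equal library medians. The 36 included Cdc6, the loader of the helicase (-0.42 ± 0.04, adjusted p = 9.10e-04). E2f1, E2f2 and E2f3 fell in the same comparison.

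Of 25 G2/M genes bound by DREAM, 18 rose and 0 fell with 4-OHT at 48 h (median 0.20), where 25.0% of all genes were called higher. At 24 h 17 rose and 0 fell (median 0.15), where 15.7% of all genes were called higher. With 1 library left out, 15 to 17 rose at 48 h and 13 to 18 at 24 h. Kif23, a kinesin of cell division, rose most clearly at both times (0.63 ± 0.04 and 0.55 ± 0.04). With AS1842856 at 48 h 0 rose and 3 fell, Ccnb2, Aurkb and Kif11, with a median of -0.16, where 2.97% of all genes were called lower. That count was 17 with the replicate number as a block, 13 in the fit of all 8 groups, 8 without DMSO replicate 1 and 0 or 1 without any other library. The block called 7.54% of all genes lower. Over all tested genes the block, the 8-group fit and the fit without DMSO replicate 1 called 1629, 1220 and 901, against 557 in the main fit. With AS1842856 at 24 h 0 were called. In EtOH cells 3 rose and 2 fell between 48 h and 24 h (median 0.01), where 13.4% of all genes were called higher and 12% lower. The responses to the 2 treatments at 48 h differed in 21 of the 25, all lower with AS1842856, where 37.1% of all genes differed and 19.1% were lower. Rbl2, E2f2 and 18 of the 25 G2/M genes were thus higher in the same 4-OHT libraries at 48 h, and E2f4 and Mybl2 were lower in them.

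**Figure D4:**
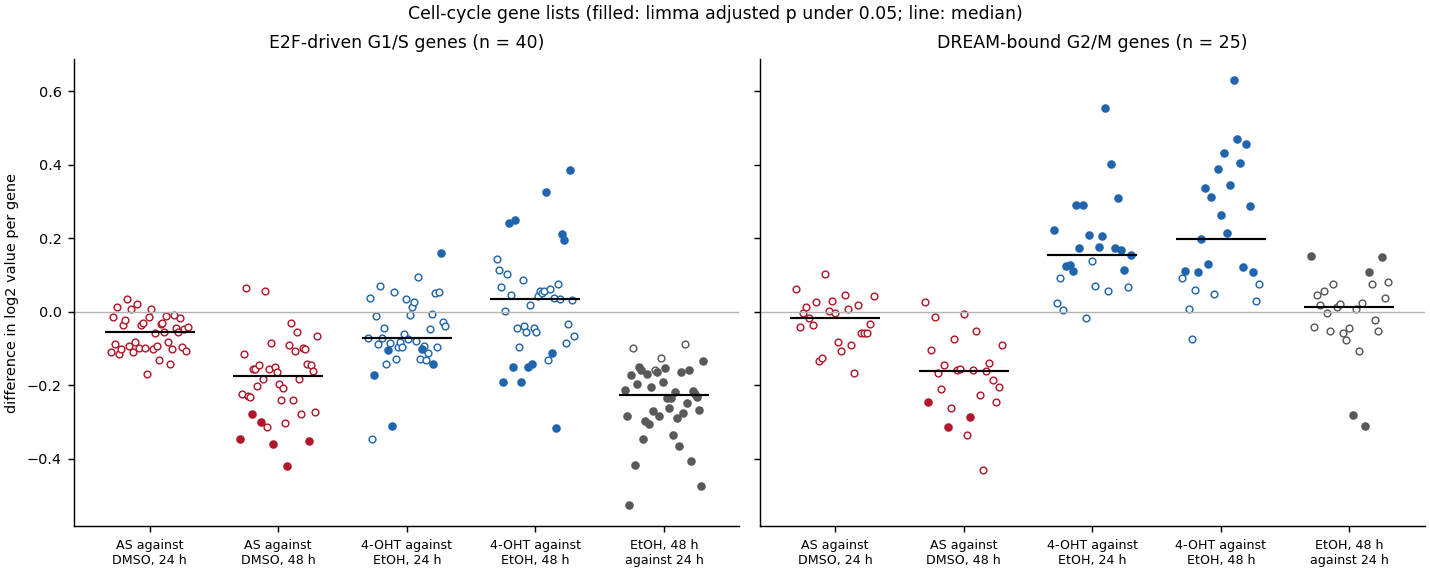
Difference in log2 value (vertical axis) of each gene of the G1/S list (left panel, 40 genes) and of the DREAM-bound G2/M list (right panel, 25 genes) in 5 comparisons (horizontal axis). Points are genes, filled where limma's adjusted p was under 0.05, and lines are medians. The G1/S median is lowest for EtOH at 48 h against 24 h (-0.23), and the G2/M median is above 0 with 4-OHT at both times (0.15 at 24 h and 0.20 at 48 h).

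Among 7 measured genes of apoptosis that E2F1 can activate, Bcl2l11, which encodes the BH3-only protein BIM, rose with AS1842856 at 48 h (0.41) and with 4-OHT at 48 h (0.59). Pmaip1, which encodes NOXA, was called higher with AS1842856 (0.34, adjusted p = 0.0484) and lower with 4-OHT (-0.34, adjusted p = 0.0156). The call with AS1842856 was lost whichever library was left out, and that with 4-OHT was lost without EtOH replicate 2 or 3 or 4-OHT replicate 1.

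The genes whose levels ran most like a member's over the 24 libraries were found by Pearson's r among 5548 named genes at or above the median level. For E2f4 they were Ran, Atic and Eif2s1 (r 0.978, 0.968 and 0.967), and for Rbl2 Snrk, Aldh2 and Trim12c (r 0.969, 0.959 and 0.958). For E2f3 they were Sfpq, Txlna and Pom121 (r 0.960, 0.946 and 0.938), and for E2f2 Supt4a, Dyrk2 and Anapc2 (r 0.889, 0.884 and 0.880). E2f8 was followed most closely by Tmbim4 (r 0.872), E2f5 by Noc3l (r 0.835) and E2f6 by Pmpca (r 0.795). The libraries share groups and arms, so these are descriptions of 24 points that fall into 8 groups.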

How the data were processed

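RNA-seq tables of 24 libraries, 3 in each of 8 groups, were analysed from 4 deposited tables of 41444 genes. The submitters' processing notes name STAR 2.7.11b, Salmon 1.1.1, DESeq2 1.44.0 and mm10, with no roles. Each table holds the authors' log2 expression values per library, their transformation not given in the sources used here, and, per the file headers, the authors' log2 fold change with its standard error, a test statistic (a score with no fixed range), a p-value and an adjusted p-value. Total counts are unknown, so no counting intervals are given.

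Genes were tested where the deposited mean reached log2(10 + 1), which left 11470. limma 3.58.1 in R 4.3.3 (two-sided, trended moderation of variances) was fitted to the 2 groups compared, or to 4 groups for differences between responses, with Benjamini-Hochberg adjustment over all tested genes and calls at 0.05. The code was tested on simulated data. Tables and figures used Python 3.11.15, pandas 2.3.3 and matplotlib 3.10.9. The E2F genes are all named; of longer lists at most 4 called genes per comparison, those of smallest adjusted p, are named. Some named by that rule are not reported here. The genes and lists were chosen with earlier results of these data known. For each E2F gene called in a treatment comparison, the 3 genes of highest r were taken. Coordinates are those of GENCODE M21 (GRCm38).

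The smallest root mean square difference between any 2 libraries was 0.144 log2 units. Replicate numbers were checked for pairing by correlating deviations from group means. Only in the compound arm at 48 h were the correlations of all 3 replicates above 0 (0.41, 0.25 and 0.15 for replicates 1 to 3). In that arm at 24 h they were 0.46, -0.34 and -0.19. Whether such values exceed those of unpaired libraries was not tested. Alternatives were no filter, equal library medians, 1 fit of all 8 groups, no variance trend, a replicate block, each library left out and the authors' deposited test.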

Additional observations from a re-analysis of the deposited data

Results flagged for a closer look

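These results were singled out because a test of the difference between 2 responses, limma's contrast over 4 groups adjusted over all 11470 tested genes, passed for an E2F family gene. Between 48 h and 24 h the 4-OHT response differed by 0.43 for E2f2, by -0.23 for E2f4 and by -0.22 for E2f8. The E2f8 call was lost with no filter, equal library medians, the 8-group fit and no variance trend and in 9 of 12 fits that left out 1 library, and the E2f4 call in the 8-group fit. Both responses of each gene are taken against EtOH libraries of their own time. The AS1842856 response minus the 4-OHT response at 48 h was -0.98 for E2f2, -0.67 for Rbl2, 0.34 for E2f4, 0.25 for E2f8 and -0.19 for Rbl1. At 24 h it was -0.54 for Rbl2, and replicate 3 of AS1842856, the library that stood apart, was at the DMSO level of Rbl2.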

How the results depend on the processing

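Of the E2F family calls with a treatment, E2f2 with AS1842856 at 48 h, E2f2, E2f4 and Rbl2 with 4-OHT at 48 h and Rbl2 with 4-OHT at 24 h held in each fit that left out 1 library. Genes called with AS1842856 at 24 h numbered 4 with no filter, 0 in 1 fit of all 8 groups and 15 by the authors' test, and 1 to 20 with 1 library left out (20 without AS1842856 replicate 3). At 48 h they numbered 205 with no filter, 1220 in the 8-group fit, 1629 with the replicate block and 1505 by the authors' test, and 108 to 901 with 1 library left out (901 without DMSO replicate 1). E2F genes called there were 3 in the 8-group fit, 2 with the block and 3 by the authors' test. With 4-OHT at 24 h the 8-group fit called 2219 genes, and E2F calls were 3 with no filter, 2 in the 8-group fit, 3 by the authors' test and 1 to 5 with 1 library left out. With 4-OHT at 48 h they were 3 to 5 with 1 library left out. Between 48 h and 24 h, genes called in DMSO were 7 with no filter, 223 in the 8-group fit, 3 with the block and 1 to 4 with 1 library left out. In EtOH they were 1689 with no filter, 1332 in the 8-group fit and 1704 to 2858 with 1 library left out. For the 4-OHT response between times the 8-group fit called 453 genes and 1 E2F gene, and left-out fits 2 to 5 E2F genes. For AS1842856 minus 4-OHT at 24 h, genes called were 1106 in the 8-group fit, 461 with the block and 408 to 2037 with 1 library left out. E2F genes called there were 0 with no filter, 2 in the 8-group fit, 0 with the block and 0 to 5 with 1 library left out. At 48 h left-out fits called 3 to 6 E2F genes.

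Some small differences changed sign when 1 library was left out: with AS1842856 E2f4 at 24 h ran from -0.0098 to 0.11, and at 48 h E2f1 from -0.0747 to 0.0231, E2f3 from -0.22 to 0.0322 and E2f4 from -0.0861 to 0.0226; with 4-OHT E2f7 ran from -0.0203 to 0.27 and Rbl1 from -0.0162 to 0.0603 at 24 h, and E2f3 from -0.0402 to 0.0593, E2f7 from -0.0038 to 0.19 and Rbl1 from -0.0048 to 0.0606 at 48 h. The authors' test gave -0.0046 for E2f3 with 4-OHT at 48 h. Each of these differences was uncalled in the setting that reversed it. With equal library medians the share of calls that were higher moved to 41.3%, against 52.8%, for EtOH between times, to 56.6%, against 42.1%, for the 4-OHT response between times, and to 45.4%, against 53.4%, for 4-OHT at 24 h. They ended the call of E2f5 with 4-OHT at 48 h. The replicate block also ended the call of E2f5 with 4-OHT at 48 h (adjusted p = 0.0801) and of Rbl2 for AS1842856 minus 4-OHT at 24 h (0.0868). The replicate correlations there were not all above 0. The block gave E2f8 a call with AS1842856 at 48 h, where those correlations were all above 0. The cause of these moves was not tested. The depth behind each value is unknown.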
